A study of Mus musculus with 6 samples.

Results

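The annexin and S100 calcium-binding families were followed in bone marrow stromal cells from mice with chronic or acute myeloid leukemia. Members were chosen by gene symbol, as every symbol that starts with Anxa or S100a and goes on with a digit, together with S100b, S100g, S100z and S100pbp. The rule found 31 of the 22180 genes that had a probe set of their own. They are 11 annexins, 18 S100 genes, the pseudogene S100a11-ps and S100pbp, which encodes a protein that binds an S100 protein and is no S100 itself. Each was measured by 1 probe set, and all 31 were tested, with no filter on low values. A further 4 probe sets carry a member's symbol beside other symbols and are given apart. Of these, 3 name Anxa11 and 1 names S100a11-ps.

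Gene expression was measured on 6 Affymetrix arrays, 3 labelled as chronic myeloid leukemia (CML) and 3 as acute myeloid leukemia (AML). All samples are sorted osteoblastic cells of the marrow from mice with the genotype Col2.3 GFP, in which part of the Col1a1 promoter drives a green fluorescent reporter in the bone-forming lineage. No source used here gives how the leukemias were induced, the age of the mice or whether mice were pooled. Every direction below rests on the sample titles, because the source name field reads CML in all 6 samples. No label states that a group's samples are from separate mice. If they are not, the p-values cover technical spread alone.

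Osteoblast markers were seen in both groups. A level above the array median is common and does not identify a cell type. Of all 22180 genes, 12695 had a mean above the array medians. Of the 8 osteoblast markers measured, Col1a1, Col1a2, Sp7, Alpl and Ibsp were above the array median on all 6 arrays. Bglap was above it on 5 arrays, and Dmp1 and Phex on 4. All 9 pan-haematopoietic, all 9 neutrophil and all 6 myeloid progenitor and primary granule markers measured were also above it on all 6 arrays. Of the monocyte and macrophage markers, Adgre1 was above it on 4 arrays, Mrc1 was below it on all 6, and the others were above it on all 6. The T cell genes Cd3e, Cd3g and Cd8a were below it on all 6. In bulk RNA such as this, fewer cells of a type and less RNA per cell cannot be told apart. The median log2 intensity of the arrays ran from 4.11 to 4.35, and a member is called dim here where it lay below that median on its array. Where 3 values of a group are given, they follow the replicate numbers 1, 2 and 3. The number of arrays limits the precision, and no detection p-value was used.

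Annexins are soluble proteins that bind acidic membrane phospholipids when calcium rises, and they take part in membrane repair, vesicle traffic and the control of inflammation. S100 proteins are small calcium sensors of the EF-hand type, mostly dimers, that bind target proteins inside cells and, once released, act on receptors of the innate immune system. The families meet in complexes, such as that of annexin A2 with S100A10 and that of annexin A1 with S100A11. In marrow, S100A8 and S100A9, which pair as calprotectin, are known as abundant proteins of neutrophils and monocytes.

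Among the 31 members, 4 rose in AML and none fell. These were Anxa3, Anxa2, Anxa5 and S100a4, at a Benjamini-Hochberg adjusted p under 0.05 in limma, the linear model used for all genes. They make 12.9% of the members, where 1.91% of all 22180 genes passed in either direction and 1.83% passed as higher and 0.0812% as lower. Dim genes lower that background. With the brighter 50% of genes tested alone, 4 of 23 members passed, where 5.07% of 11090 genes did. Among all 31 members 11 had an unadjusted p below 0.05 in limma (35.5%, against 21.5% of all genes), 9 higher and 2 lower in AML. By value 17 members were higher and 14 lower, with a median log2 difference of 0.13, AML minus CML. Over all genes 38.3% were higher and the median was -0.11, which median centring of the arrays moved to 0.04 and cyclic loess to -0.007. The share of genes higher by value depended on the scaling, at 46.2% after quantile normalization, 55% after median centring and 49% after cyclic loess, where 18, 19 and 19 of the 31 members were higher. Among the brighter 50% of genes it was 59.8%, with 17 of 23 members. The median of the 11 annexins was 0.77 and that of the 18 S100 genes -0.14. Under quantile normalization, median centring and cyclic loess the annexin median ran from 0.49 to 0.92, while that of the S100 genes lay at 0.008, 0.01 and -0.04.

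The count of 4 depended on single arrays and on scaling. No member passed in limma without CML 3, without AML 1 or without AML 2, and none of the 22180 genes passed either. In those fits 11, 9 and 10 members had an unadjusted p under 0.05 in limma, beside 3533, 3048 and 3750 of all genes. Without CML 1, CML 2 or AML 3 the count was 2, 1 and 3, where 1.97%, 1.61% and 1.26% of all genes passed. Quantile normalization left 1 member, Anxa3, as did an offset of 16 added before the log. Of all genes 0.419% and 1.05% passed there, in the same order. Cyclic loess left 0 members (9 with an unadjusted p below 0.05 in limma) and 0.289% of all genes. Median centring gave 6, where Anxa4 and S100a1 joined the 4, and 4.04% of all genes passed.

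**Figure D1:**
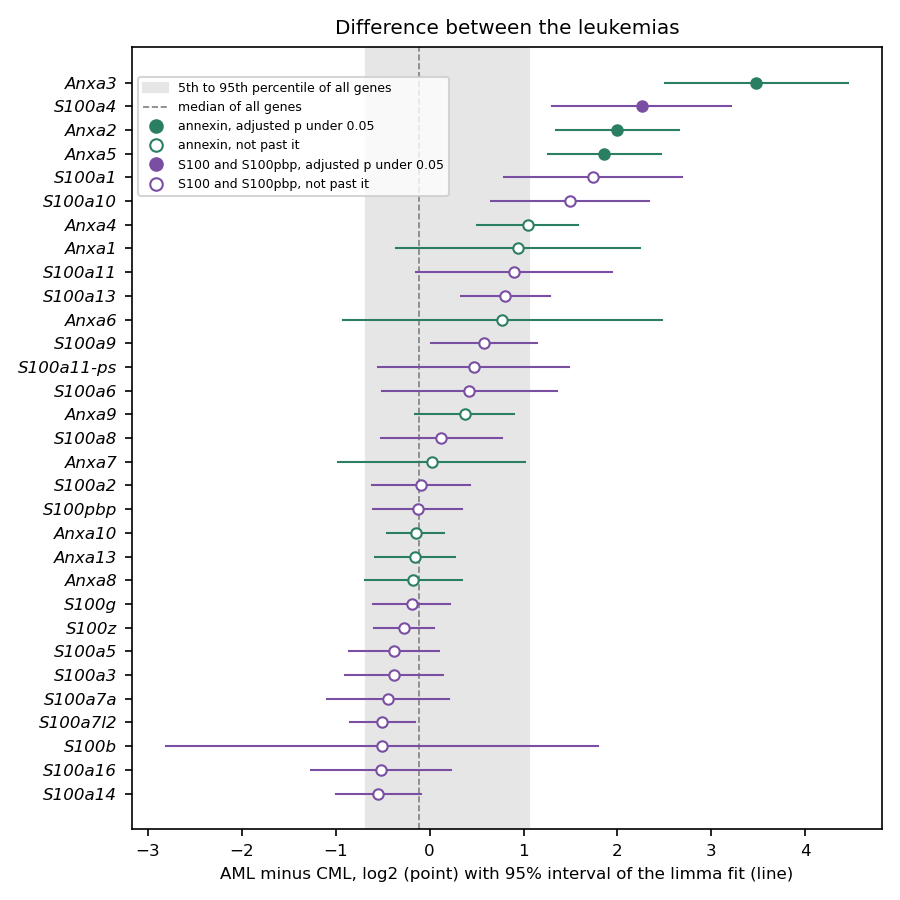
Difference AML minus CML in log2 intensity for the 31 members, ordered by size, as points with the 95% interval of the limma fit as lines. Filled points passed an adjusted p under 0.05, and the grey band spans the 5th to the 95th percentile of all genes, from -0.67 to 1.06. The 4 filled points, Anxa3, S100a4, Anxa2 and Anxa5, lie to the right of the band with their whole intervals.

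The stretches of DNA just upstream of these genes are shown because 3 of the 4 genes that rose have one in RefSeq's promoter table for GRCm38.p6. Anxa3 has no entry there. S100a8, a member of the same chromosome 3 cluster as S100a4 that did not pass, is shown for comparison. Each is the 250 bases before the annotated start, 5′ to 3′ on the strand of the gene, and ends at the base before the start. S100a4 is chr3:90603520-90603769 on the plus strand, S100a8 is chr3:90668821-90669070 on the plus strand, Anxa2 is chr9:69453433-69453682 on the plus strand and Anxa5 is chr3:36475888-36476137 on the minus strand. Capitals mark matches, on either strand, to any of 6 searched motifs: TATAAA (known as the TATA box), GGGCGG (known as the GC box), TTGCNNAA (C/EBP), AGGAAG (ETS and PU.1 core), the AP-1 motif (TGA, any base, TCA) and TGATTNAT (HOX with PBX).
S100a4: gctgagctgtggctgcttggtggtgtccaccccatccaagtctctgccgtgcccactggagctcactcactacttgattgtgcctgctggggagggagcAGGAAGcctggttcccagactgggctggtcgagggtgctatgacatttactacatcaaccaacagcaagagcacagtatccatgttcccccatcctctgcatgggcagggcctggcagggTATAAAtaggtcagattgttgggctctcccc
S100a8: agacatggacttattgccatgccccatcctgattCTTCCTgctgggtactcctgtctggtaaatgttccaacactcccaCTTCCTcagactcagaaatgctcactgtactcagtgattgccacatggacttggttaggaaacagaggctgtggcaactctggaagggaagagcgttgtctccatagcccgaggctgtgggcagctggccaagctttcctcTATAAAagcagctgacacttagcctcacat
Anxa2: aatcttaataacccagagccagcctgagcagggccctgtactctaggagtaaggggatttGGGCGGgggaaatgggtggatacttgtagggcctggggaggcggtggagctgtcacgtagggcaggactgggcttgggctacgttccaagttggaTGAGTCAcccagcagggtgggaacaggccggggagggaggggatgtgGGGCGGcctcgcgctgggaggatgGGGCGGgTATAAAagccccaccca
Anxa5: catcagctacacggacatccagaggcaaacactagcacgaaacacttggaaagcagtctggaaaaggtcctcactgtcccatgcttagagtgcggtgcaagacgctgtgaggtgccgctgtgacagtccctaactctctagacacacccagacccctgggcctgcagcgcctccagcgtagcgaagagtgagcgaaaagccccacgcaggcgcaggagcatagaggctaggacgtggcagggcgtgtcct

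The S100a4 stretch holds a TATAAA that begins 31 bases before the start and 1 AGGAAG at 151 bases. That of S100a8 holds a TATAAA at 30 bases and the reverse complement of AGGAAG at 171 and 216 bases. The Anxa2 stretch holds a TATAAA at 17 bases, GGGCGG at 24, 48 and 190 bases and an AP-1 match at 95 bases. None of the 6 motifs was found in the Anxa5 stretch. Windows were found for 24 of the 31 members, 32 windows in all because some genes have several starts. TATAAA was in 7 of these 32, GGGCGG in 9, TTGCNNAA in 5, AGGAAG in 8, the AP-1 motif in 5 and TGATTNAT in 2. Over all 32851 windows of the same length the shares were 12.4%, 32.7%, 9.56%, 29.5%, 6.75% and 2.82% in the same order. A match here describes the letters only.

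Anxa3 showed the largest difference of the families. Annexin A3 is known from neutrophil granules and from phagocytes. Its log2 intensity (probe set 17439464, chromosome 5) was 5.42, 4.53 and 5.76 in the CML arrays against 9.31, 8.68 and 8.14 in the AML arrays. Every AML array was thus above every CML array, with the lowest AML value 2 log2 units or more above the highest CML value. The means were 5.23 ± 0.64 in CML and 8.71 ± 0.59 in AML (SD, n = 3 each), a difference of 3.48 ± 0.41 (SE), or 11.1-fold (limma adjusted p = 0.0248). It ranked 17 among all genes by size of rise. With 1 array left out the difference ran from 3.12 to 3.77, and it passed in 3 of the 6 fits, those without CML 1, CML 2 or AML 3. It passed after quantile normalization and median centring and not after cyclic loess (3.17, limma adjusted p = 0.0695).

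Anxa2 and Anxa5 rose by similar amounts. Annexin A2 forms a heterotetramer with S100A10 at the plasma membrane and binds plasminogen and its activator there. Its values (probe set 17518962, chromosome 9) were 6.80, 6.74 and 7.37 in the CML arrays against 9.04, 9.35 and 8.51 in the AML arrays. The groups were apart by more than the spread within either, at 6.97 ± 0.35 and 8.97 ± 0.42 (SD, n = 3 each), and the difference of 1.996 ± 0.27 (SE), 3.99-fold, passed (limma adjusted p = 0.0306). With 1 array left out it ran from 1.81 to 2.22 and passed only without AML 3.

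Annexin A5, widely used as a probe for phosphatidylserine on dying cells, is also a component of the matrix vesicles from which bone mineral starts. Anxa5 (probe set 17404796, chromosome 3) stood at 7.16, 7.21 and 7.54 in the CML arrays against 9.25, 9.56 and 8.68 in the AML arrays. The 3 CML arrays lay close together and all AML arrays were above them. It was 1.86 ± 0.25 (SE) higher in AML, 3.63-fold (limma adjusted p = 0.0298). With 1 array left out the difference ran from 1.66 to 2.10. It passed without AML 3 (limma adjusted p = 0.0258) and, at the threshold itself, without CML 1 (limma adjusted p = 0.05 after rounding). Among the scalings, both Anxa2 and Anxa5 passed after median centring alone, with limma adjusted p of 0.0832 and 0.0789 after quantile normalization.

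Anxa4 did not overlap between the groups and did not pass. Annexin A4 is an annexin of epithelial and secretory cells that forms arrays on membranes. Anxa4 values were 4.44, 4.21 and 4.05 in the CML arrays, at the level of the array medians, and 5.56, 5.42 and 4.85 in the AML arrays. The difference was 1.04 ± 0.22 (SE; limma adjusted p = 0.0743), and it passed after median centring (1.19, limma adjusted p = 0.0463).

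Anxa1 and Anxa6 were set apart by CML 2. Annexin A1 is induced by glucocorticoids and limits inflammation through formyl peptide receptors. Anxa1 stood at 9.11, 7.34 and 9.48 in the CML arrays against 9.57, 9.89 and 9.30 in the AML arrays, so that the AML arrays overlapped CML 3. Its difference was 0.94 (95% interval -0.35 to 2.24; limma adjusted p = 0.331), and without CML 2 it was 0.29. Anxa6, the annexin with a doubled core that is known from endosomes and cholesterol traffic, was at 4.62 on CML 2 and between 6.83 and 7.51 on the other 5 arrays. Its difference of 0.77 (limma adjusted p = 0.507) turned to -0.09 without CML 2.

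The other annexins gave differences near 0. Anxa7, which encodes an early described annexin of secretory granules also called synexin, spanned 5.94 (CML 1) to 7.68 (CML 2), with AML at 6.68 to 7.02, a difference of 0.02 with a 95% interval from -0.98 to 1.02. Anxa9 was 0.37 higher by value (limma adjusted p = 0.339), between 4.32 and 5.09 in CML against 4.90 to 5.16 in AML. Anxa13, known from the gut, ranged from 4.28 to 4.83 over the 6 arrays, with a difference of -0.15. Anxa8 and Anxa10 were dim on all 6 arrays, with differences of -0.17 and -0.15, so that little can be read from them. The arrays did not overlap for Anxa10, between 3.01 and 3.10 in CML against 2.84 to 2.97 in AML, and its difference turned to 0.01 after cyclic loess.

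The probe sets that name Anxa11 also name the predicted genes Gm2274 and Gm2260. Annexin A11 binds the calcium sensor encoded by Pdcd6 and links RNA granules to lysosomes. Probe sets 17297801 and 17297833 hold identical values on all 6 arrays and were counted as 1. They stood at 6.73, 6.98 and 7.05 in the CML arrays against 9.07, 8.84 and 8.69 in the AML arrays. In a fit over all 39721 probe sets, where 0.685% passed, they were 1.94 ± 0.17 (SE) higher in AML, 3.84-fold (limma adjusted p = 0.0227). With 1 array left out they passed without AML 3 alone, at differences from 1.84 to 2.03. The other set, 17297759, was 0.97 ± 0.15 (SE) higher by value and did not pass (limma adjusted p = 0.0604). Which of the 3 genes gave the signal cannot be told apart. The probe set shared by Hif1a and S100a11-ps differed by -0.20 (limma adjusted p = 0.436).

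**Figure D2:**
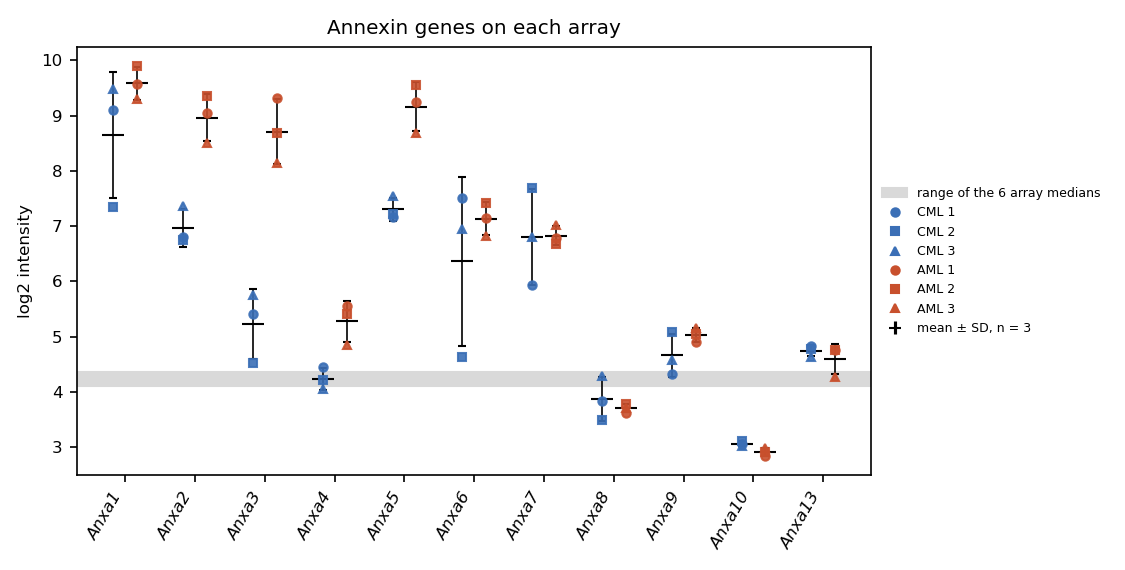
Log2 intensity of the 11 annexin genes on each array, CML in blue and AML in orange, with the mean and SD of 3 arrays in black and the range of the array medians, 4.11 to 4.35, in grey. Anxa2, Anxa3, Anxa4 and Anxa5 have all AML arrays above all CML arrays, and the low square for Anxa1 and Anxa6 is CML 2.

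S100a4 was the S100 gene that rose. S100A4, also called metastasin, binds non-muscle myosin and is known from motile cells, fibroblasts and myeloid cells. Its log2 intensity (probe set 17399802, chromosome 3) was 6.98, 6.75 and 7.69 in the CML arrays against 8.89, 10.19 and 9.12 in the AML arrays. All AML arrays were above all CML arrays, with AML 2 the highest by about 1 log2 unit. The means were 7.14 ± 0.49 and 9.40 ± 0.69 (SD, n = 3 each), a difference of 2.26 ± 0.40 (SE), 4.78-fold (limma adjusted p = 0.0495). The call lay at the threshold: it passed in none of the fits with 1 array left out, where the difference ran from 1.86 to 2.53 and the limma adjusted p from 0.0738 to 0.142. Among the scalings it passed after median centring alone.

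S100a1 and S100a13, neighbours on chromosome 3, were both higher by value. S100A1 is known for its regulation of calcium handling in muscle, and S100A13 for the release of fibroblast growth factor 1 and interleukin 1 alpha without a signal peptide. S100a1 stood at 5.46, 4.97 and 6.50 in the CML arrays against 7.37, 7.70 and 7.08 in the AML arrays. S100a13 stood at 8.48, 8.07 and 7.90 in the CML arrays against 9.01, 9.11 and 8.76 in the AML arrays. The groups did not overlap for either gene, and neither passed, at 1.74 ± 0.40 and 0.81 ± 0.20 (SE; limma adjusted p = 0.0841 and 0.0994). After median centring S100a1 passed (1.89, limma adjusted p = 0.0465). The annotated starts of both genes lie 105 bases apart on opposite strands in GRCm38.p6, facing away from each other.

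S100a10, the partner of annexin A2, was also higher by value on every AML array. It was at 8.21, 7.87 and 7.36 in the CML arrays against 8.95, 10.003 and 8.97 in the AML arrays, with AML 2 again the highest. The difference was 1.495 ± 0.35 (SE; limma adjusted p = 0.0912), and it did not pass under any scaling.

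The calprotectin genes were bright, and neither passed. S100a8 stood at 12.19, 11.41 and 12.42 in the CML arrays against 12.14, 12.21 and 12.04 in the AML arrays, with CML 2 the lowest and CML 3 the highest array. The difference was 0.13 with a 95% interval from -0.51 to 0.77 (limma adjusted p = 0.778), short of a doubling in this fit of the values as deposited. It was 0.31 after quantile normalization and -0.08 after cyclic loess. Without CML 2 it was -0.17, and without CML 3 it was 0.33. S100a9 stood at 11.64, 10.83 and 11.56 in CML against 11.98, 11.98 and 11.81 in AML. Its groups did not overlap, and the difference of 0.58 did not pass (95% interval 0.01 to 1.15; limma adjusted p = 0.225).

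S100a6 and S100a11 were likewise bright, with CML 2 as the low array. S100A6, or calcyclin, is a growth-related S100 protein, and S100A11 is the partner of annexin A1. S100a6 was at 11.27, 10.06 and 11.58 in the CML arrays against between 11.21 and 11.62 in AML, a difference of 0.43 (limma adjusted p = 0.508) that became -0.03 without CML 2. S100a11 was at 11.08, 9.55 and 10.96 in CML against 11.78, 11.49 and 11.01 in AML, a difference of 0.90 (limma adjusted p = 0.276) and of 0.41 without CML 2. The pseudogene S100a11-ps was 0.47 higher by value, at 5.26 on CML 2 and from 6.30 to 6.94 on the other arrays. Its sequence is derived from S100a11, and signal from the parent gene was not tested.

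Among members lower in AML by value, S100a14 and S100a7l2 had the lowest p. S100a14, known from epithelia, was at 5.27, 4.73 and 5.19 in the CML arrays against 4.53, 4.64 and 4.38 in the AML arrays. Its groups did not overlap, by a margin of about 0.1 between CML 2 and AML 2, and the difference of -0.55 ± 0.19 did not pass (SE; limma adjusted p = 0.179). S100a7l2 was dim on all arrays, between 2.83 and 3.15 in CML against 2.43 to 2.57 in AML (-0.50; limma adjusted p = 0.133). S100a5 and S100z were also dim on all arrays, at -0.38 and -0.27. S100a16, S100a7a and S100a3 stood at -0.52, -0.44 and -0.38 with overlapping arrays, and S100a2, S100g and S100pbp at -0.09, -0.19 and -0.13.

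S100b was high on 1 array of each group. S100B is the S100 protein of glia, and is also known from chondrocytes and fat cells. It stood at 7.54 on CML 3 and 6.69 on AML 2 and between 4.15 and 4.82 on the other 4 arrays. The difference of -0.51 therefore had a 95% interval from -2.81 to 1.79 (limma adjusted p = 0.750) and was 0.44 without CML 3. The summed intensity of the osteoblast markers was also highest on CML 3 within CML, at 12300, and on AML 2 within AML, at 4660, and its part in the S100b values was not tested.

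**Figure D3:**
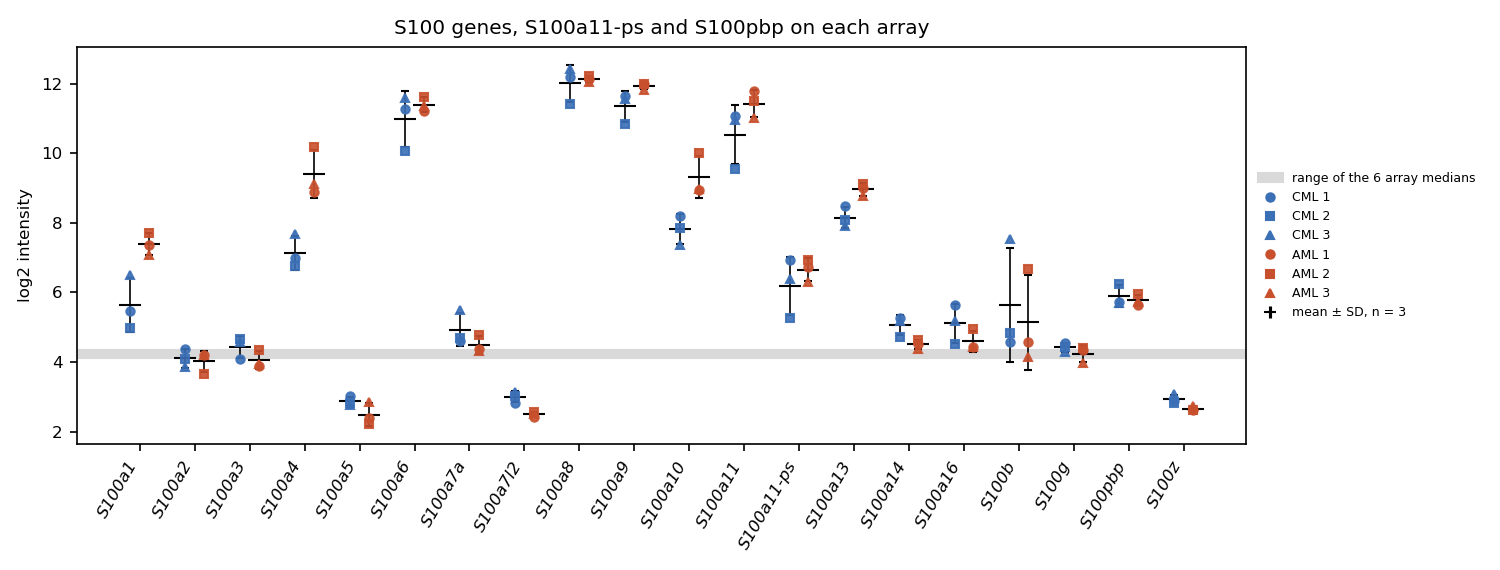
Log2 intensity of the 18 S100 genes, S100a11-ps and S100pbp on each array, CML in blue and AML in orange, with the mean and SD of 3 arrays in black and the range of the array medians in grey. S100a4, S100a1, S100a10, S100a13 and S100a9 have all AML arrays above all CML arrays, while S100b is high on CML 3 and AML 2.

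Over the families, the groups did not overlap for 9 members higher in AML (29.0%, against 13.3% of all genes) and for 4 members lower (12.9%, against 17.9%). Of these 4, Anxa10, S100a7l2 and S100z were dim on every array. The 5 members dim on all arrays were these together with Anxa8 and S100a5.

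Partners of a complex were compared through the difference of their log2 values on each array, which a shift common to an array leaves as it is. S100a9 minus S100a8 was -0.55, -0.58 and -0.86 in the CML arrays against -0.16, -0.23 and -0.23 in the AML arrays, so that S100a9 stood higher relative to S100a8 on every AML array. The shift was 0.45 (exact two-sided permutation p = 0.1, the smallest that 3 against 3 arrays allow; 0.3 after Benjamini-Hochberg adjustment over the 3 pairs compared). S100a10 minus Anxa2 ran between -0.01 and 1.41 in CML against -0.09 to 0.66 in AML, a shift of -0.50 (exact permutation p = 0.3, adjusted 0.45). S100a11 minus Anxa1 ran between 1.49 and 2.21 in CML against 1.60 to 2.21 in AML, a shift of -0.05 (exact permutation p = 1, adjusted 1). With 3 arrays a group none of these could pass.

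In RefSeq's gene order, 15 of the S100 genes lie on chromosome 3, and the differences did not follow that order. The first 13, from S100a1 to S100a7l2, have at most 5 other genes between neighbours, and 77 genes separate S100a7l2 from S100a11. S100a1 and S100a13, at one end, were higher by value, the next 4 (S100a14, S100a16, S100a3 and S100a2) lower, S100a4 higher, and S100a5 lower. S100a4 thus rose between S100a2 and S100a5, which stood at -0.09 and -0.38. Both neighbours were dim or near the array medians.

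**Figure D4:**
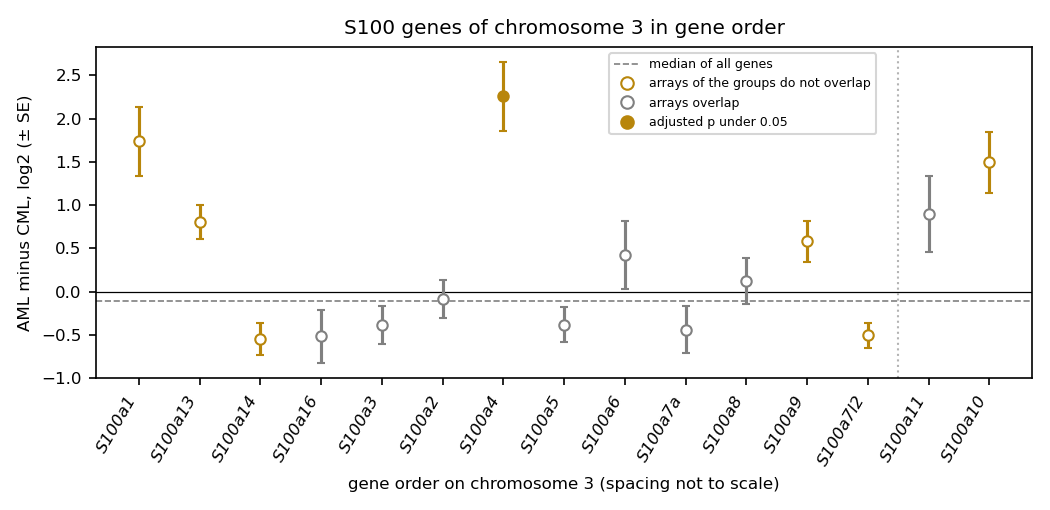
Difference AML minus CML in log2 intensity, with its SE, for the 15 S100 genes of chromosome 3 in gene order, spacing not to scale. The dotted line marks the gap of 77 genes before S100a11, gold points have groups that do not overlap, and S100a4, the filled point, lies between S100a2 and S100a5, which are both below 0.

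The arrays of a group were not alike in these families. Of the 25 members whose mean lay above the array medians, AML 2 was the highest AML array for 20 (80%, against 31.1% of all such genes) and AML 3 the lowest for 18 (72%, against 37.1%). Among the CML arrays, CML 2 was the lowest for 13 of the 25 (52%, against 33.3%). Members on 1 array share its RNA, so these are descriptions of single arrays.

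Markers of other cells moved with the groups, and their part in the annexin and S100 differences was not tested. All 6 genes of myeloid progenitors and primary granules rose in AML in limma, where 1.83% of all genes did. Their summed intensity ran between 663 and 941 in CML against 4680 to 10900 in AML. The sum of the 9 pan-haematopoietic genes ran between 745 and 2600 in CML against 2960 to 5230 in AML, with 2 of 9 past the threshold, and that of the 9 monocyte and macrophage genes from 1370 to 3630 and from 4560 to 8470, with 2 of 9. Neutrophil markers overlapped, from 2430 to 7470 and from 6820 to 9780, with 0 of 9 past the threshold in limma. At an unadjusted p under 0.05 in limma, Camp and Lcn2 were higher (1.24 and 1.03) and Retnlg lower (-1.66), each with groups that did not overlap, and Mmp8 and Cxcr2 were also lower by value. In the monocyte and macrophage list Mrc1 and C1qa were lower by value (-0.35 and -0.36), with an unadjusted p under 0.05 in limma. CML 2 was the lowest of the 6 arrays for these 4 sums and for those of B lineage, T and NK, endothelial and mesenchymal progenitor genes, 8 of the 11 lists. It was also the lowest CML array for osteoblast markers, and the lowest array for S100a8, S100a9, S100a6, S100a11, Anxa1 and Anxa6. For the megakaryocyte and erythroid lists, 2 of the 11, CML 2 was the highest CML array. AML 2 was the highest AML array for 5 of the 11 lists, which were osteoblast, monocyte and macrophage, B lineage, endothelium and mesenchymal progenitor. AML 1 was the highest for the myeloid progenitor, pan-haematopoietic, neutrophil and T and NK lists. AML 3 was the lowest AML array for 9 of the 11 lists and the highest for the megakaryocyte and erythroid lists. The 8 osteoblast markers summed to between 2630 and 12300 in CML and between 1260 and 4660 in AML, all 8 lower by value and none past the threshold (0 at an unadjusted p under 0.05 in limma).

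The remaining marker lists held no gene past the threshold in limma. The sum of 5 T and NK genes did not overlap, between 162 and 315 in CML against 403 to 697 in AML, and Nkg7 carried it (1.68 higher by value). The other 4 genes of that list were lower by value, the list's median was -0.34, and Cd3e, Cd3g and Cd8a were dim on all arrays. Sums overlapped for 4 B lineage genes (between 96.5 and 1520 in CML against 120 to 256 in AML), 5 endothelial genes (from 90.2 to 161 and from 115 to 202), 4 megakaryocyte genes (from 179 to 403 and from 181 to 2740), 5 mesenchymal progenitor genes (from 157 to 268 and from 174 to 387) and Klf1, the erythroid gene measured (from 83 to 348 and from 36.6 to 236). Emcn, Tek, Lepr and the macrophage gene Mrc1 were dim on all arrays.

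**Figure D5:**
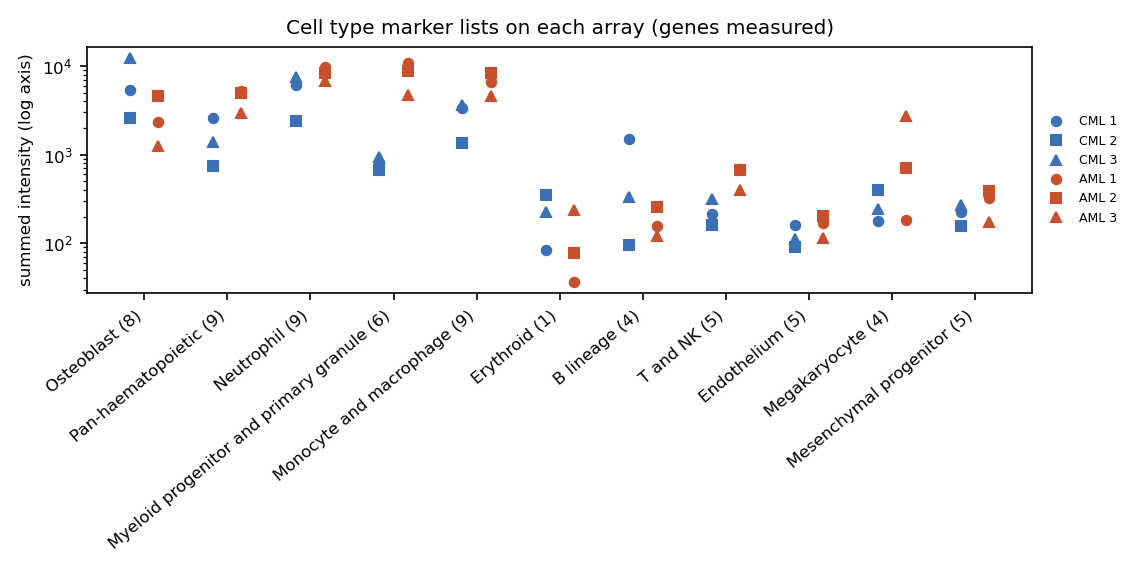
Summed intensity, on a log axis, of each cell type marker list on each array, CML in blue and AML in orange, with the number of genes measured in brackets. Sums do not overlap for the myeloid progenitor and primary granule, pan-haematopoietic, monocyte and macrophage, and T and NK lists, and CML 2, the blue square, is the lowest array for 8 of the 11 lists, these 4 among them.

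Of 11 receptors and targets of S100 proteins measured, 0 passed in limma, where 1.91% of all genes did. At an unadjusted p under 0.05 in limma 3 were higher and 1 lower (36.4%, against 21.5% of all genes), and the list's median was 0.38. Sugt1, a co-chaperone bound by S100A6, was 0.97 ± 0.22 higher by value, between 5.18 and 5.86 in CML against 6.25 to 6.61 in AML (SE; limma adjusted p = 0.0776), and it passed without CML 2 (1.17, limma adjusted p = 0.048). Cd36, a scavenger receptor that binds S100A8 with S100A9, stood at 4.34, 6.37 and 6.398 in the CML arrays against 3.38, 3.47 and 3.77 in the AML arrays, below the array medians. Its difference was -2.16 ± 0.55 (SE; limma adjusted p = 0.107), and it passed without CML 1 (-2.85, limma adjusted p = 0.0309). Ager and Tlr4, the best known receptors of released S100 proteins, were at 0.02 and 0.38, with Tlr4 between 4.10 and 5.24 on all arrays.

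Of 12 measured receptors, partners and targets of annexins, 0 passed in limma, where 1.91% of all genes did. At an unadjusted p under 0.05 in limma 4 were higher and 2 lower (50%, against 21.5% of all genes), and the list's median was 0.40. Sri, which encodes the annexin A7 partner sorcin, was 1.03 ± 0.21 higher by value, at 7.40, 8.13 and 7.72 in the CML arrays against 8.88, 8.72 and 8.73 in the AML arrays (SE; limma adjusted p = 0.0659). It passed after median centring, with array weights and without CML 2. Dysf, which encodes the membrane repair protein dysferlin, was -0.61 ± 0.16 by value, with groups that did not overlap (SE; limma adjusted p = 0.114). Ahnak, the large scaffold bound by annexin A2 with S100A10, was 1.16 higher by value, and Fpr2, the receptor of annexin A1, 0.82, with 5.99 on CML 2 and from 7.57 to 8.13 on the other arrays. Neither passed (limma adjusted p = 0.119 and 0.354). Both were named after their values were seen, as were Ager and Tlr4.

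In the lists of other calcium-binding proteins 2 genes rose, 1 in each of 2 lists. They make 3.57% of the EF-hand list and 5.56% of the C2-domain list, where 1.91% of all genes passed. Of 28 other EF-hand proteins, Gca, which encodes grancalcin of neutrophils and monocytes, stood at 4.72, 4.70 and 5.75 in the CML arrays against 8.47, 8.47 and 7.37 in the AML arrays. It was 3.05 ± 0.41 (SE) higher in AML (limma adjusted p = 0.0298), and the list's median was 0.09. The call ended after quantile normalization, cyclic loess and the offset of 16 (limma adjusted p = 0.062, 0.0765 and 0.0552), and without CML 2, CML 3, AML 1 or AML 2 (limma adjusted p from 0.0513 to 0.139). Of 18 membrane proteins with C2 domains, the calcium-binding fold of synaptotagmins and copines, Cpne2 stood at 6.35, 6.76 and 6.93 in the CML arrays against 8.87, 8.94 and 8.92 in the AML arrays. It was 2.23 ± 0.18 (SE) higher (limma adjusted p = 0.0151), passed under all 3 scalings, and did not pass without CML 3, AML 1 or AML 2. The list's median was -0.19.

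The 7 genes of the S100 fused type, large proteins of the skin barrier whose N terminus is an S100 domain, were all lower in AML by value as deposited, with a median of -0.23. Of all genes 38.3% were higher as deposited. None of the 7 passed in limma, 3 had an unadjusted p under 0.05 (42.9%, against 21.5% of all genes), and 5 were dim on all arrays. Under each of the 3 other scalings 2 of the 7 were higher. The shares of all genes higher were then 46.2% (quantile normalization), 55% (median centring) and 49% (cyclic loess). Crnn, which encodes cornulin, and Tchhl1 had the lowest p, at -0.59 and -0.64 (limma adjusted p = 0.177 and 0.192).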

How the data were processed

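The labelling kit was a terminal one for GeneChip arrays, per the labels' protocols. Limma and lumi are listed, without their roles, in the submitters' processing notes. Not given in the sources used here were background correction, summarisation, normalization and build. The deposited values are linear intensity values per probe set, from 2.71 to 8583, as judged from the values.

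Of 39721 probe sets, 23521 had 1 symbol in the platform annotation, 1814 several and 14386 none. The brightest probe set by mean stood for each gene, which left 22180 genes. A linear model of log2 intensity, AML against CML, was fitted and moderated (lmFit, eBayes) with limma 3.58.1 in R 4.3.3, two-sided, with Benjamini-Hochberg adjustment over all genes. Standard errors and intervals are those of the moderated fit. Shared probe sets were taken from a fit over all probe sets. Figures were drawn with matplotlib 3.10.9.

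The members and lists were chosen with earlier results of these data known. The text names members past the threshold, those of lowest p to 6 a family, 9 of known function, and from each list up to 4 past the threshold or otherwise the 2 of lowest p. The other members are given by level and range. The lists held 154 genes, of which 138 were measured. The comparison of partners in a complex, and the family and list counts under other scalings, were added after the data were seen.

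Alternatives were 3 other scalings, an offset of 16 before the log, testing the brighter 50% of genes alone, averaging the probe sets of each gene, trended and robust moderation, array weights, the replicate number as a block, and omission of each array in turn. The fit was tested on simulated data with 22180 genes and the AML and CML group sizes. There limma called 50% of planted genes at an absolute log2 change of 1, 94% at 2 and 96% at 3 and at 4. It made 11 false calls. The simulated noise was independent between genes, with no shift shared by an array, so these rates need not hold for the real arrays.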

Additional observations from a re-analysis of the deposited data

How the results depend on the processing

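The count of members past the threshold, 4 as reported, was 1 after quantile normalization, 1 with an offset of 16 before the log, and 0 after cyclic loess. It stayed within 1.5 times of 4 with median centring, the brighter 50% of genes, averaged probe sets, trended and robust moderation and array weights. Averaging could not change the values of any member, because each had 1 probe set, so that count says little. With 1 array left out it ran from 0 to 3. The count over all genes, 423, was 93 after quantile normalization, 896 after median centring, 64 after cyclic loess, 232 with the offset and 639 with array weights, and ran from 0 to 438 with 1 array left out. The cause was not tested. With the replicate number as a block, 0 members and 0 of all genes passed in limma, and 9 members and 3711 genes had an unadjusted p under 0.05. The deviations of same-numbered arrays from their group means correlated at 0.244, -0.302 and -0.251. Those of differently numbered arrays ran from -0.279 to 0.472. Deviations from a mean of 3 arrays depend on each other, so these values cannot decide whether the numbers pair the arrays.

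Small differences changed sign under some settings. After quantile normalization Anxa7 was at -0.19, Anxa8 at 0.005, S100a2 at 0.066 and the shift of S100a11 minus Anxa1 at 0.11. After cyclic loess Anxa7 was at -0.27, Anxa8 at 0.052, Anxa10 at 0.013, S100a2 at 0.13, S100a8 at -0.084, S100g at 0.004 and that shift at 0.018. Median centring put S100a2 at 0.061 and S100pbp at 0.023, and the offset put Anxa7 at -0.001. With 1 array left out, values crossed 0 for Anxa6 (-0.094 to 1.35), Anxa7 (-0.41 to 0.46), Anxa8 (-0.36 to 0.032), Anxa13 (-0.23 to 0.006), S100a2 (-0.22 to 0.09), S100a6 (-0.029 to 0.73), S100a8 (-0.17 to 0.33), S100b (-1.28 to 0.44), S100pbp (-0.22 to 0.052) and the shift of S100a11 minus Anxa1 (-0.25 to 0.12). Anxa3, Anxa2, Anxa5 and S100a4 kept their direction under the 3 scalings, the offset, array weights and each array left out. The other alternatives leave their differences as they are by construction. Signal near the array medians limits what can be read for the 5 members dim on all arrays.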
